A study of Mus musculus with 4 samples.

Results

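Basophil and mast cell progenitors were described here as 238 of 34122 bone marrow cells, or 0.697%, in which transcripts of basophil genes were counted. Members were chosen by measured RNA: a cell was a member when at least 3 of the 5 genes Prss34, Mcpt8, Ms4a2, Cd200r3 and Cyp11a1 were detected with at least 10 unique molecular identifiers (UMIs, which count RNA molecules) of the 5 together. The cells came from CITE-seq, which counts RNA and DNA-barcoded antibodies in the same single cell. CD45.2+Kit+ cells had been taken from mouse bone marrow 10 weeks after transplantation. CD45.2 is an allelic variant of CD45 by which donor and host leukocytes can be told from each other, and Kit (CD117) is the receptor for stem cell factor. The 4 groups were control (75 members), Mll3SI (51), Mll4SI (53) and Mll3/4SI (59), each a single library (1 per group). The labels do not spell out SI, do not give animals, sex or batches, and leave unexplained what the 2 hashtags stood for. With 1 library per group no test between groups was possible, and every interval below covers counting error only.

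Basophils and mast cells arise in the bone marrow from progenitors that depend on the transcription factor GATA2. Both carry the high-affinity receptor for IgE, whose α chain is encoded by Fcer1a and whose β chain is encoded by Ms4a2, and both store proteases and histamine in granules. Mouse basophils are known for the proteases encoded by Prss34 and Mcpt8, while mature mast cells carry Kit, chymases and tryptases. MLL3 and MLL4 (genes Kmt2c and Kmt2d) are histone methyltransferases that mark enhancers.

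The 120 bases before the transcription start are shown for genes of the rule and for Cpa3 and Fcer1a. GATA factors recognise the letters GATA, and the windows were searched for the longer forms AGATAA and TGATAA. Other GATA letters in the windows were neither counted nor marked. That genes of the rule are found together in the members is set by the rule itself. Capitals mark AGATAA or TGATAA on either strand (read on the other strand as TTATCT or TTATCA). The sequences are from RefSeq, build GRCm38.p6, written 5′ to 3′ on the strand of the gene.
Prss34, chr17:25298274-25298393, plus strand: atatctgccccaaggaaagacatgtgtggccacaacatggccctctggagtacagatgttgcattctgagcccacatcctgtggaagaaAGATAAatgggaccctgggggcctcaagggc
Ms4a2, chr19:11623720-11623839, minus strand: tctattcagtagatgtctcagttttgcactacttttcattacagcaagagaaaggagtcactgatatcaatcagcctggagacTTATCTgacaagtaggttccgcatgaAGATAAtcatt
Cd200r3, chr16:44943558-44943677, plus strand: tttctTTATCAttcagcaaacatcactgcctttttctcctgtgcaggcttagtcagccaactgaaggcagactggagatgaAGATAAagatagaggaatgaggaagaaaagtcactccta
Cpa3, chr3:20242182-20242301, minus strand: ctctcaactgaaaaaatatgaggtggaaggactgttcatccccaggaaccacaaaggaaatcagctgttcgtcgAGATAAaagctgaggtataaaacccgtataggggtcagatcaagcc
Fcer1a, chr1:173227230-173227349, minus strand: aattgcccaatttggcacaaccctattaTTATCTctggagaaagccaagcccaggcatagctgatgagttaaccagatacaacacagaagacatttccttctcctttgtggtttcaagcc
The motif was found for 5 of the 7 genes, and not in the window of Mcpt8 nor in either entry of Cyp11a1. It began 31 bases before the start for Prss34, 46 for Cpa3 and 92 for Fcer1a. Ms4a2 held it at 37 and 11 bases and Cd200r3 at 115 and 39 bases. Of 32851 windows of the same length in the table, 7.63% held at least 1 such motif. A match is a run of letters and not a shown binding site, and whether GATA factors act on these genes was not tested.

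All 10 basophil markers looked for were detected in members of every library. Their summed level was 7165, 12744, 6238 and 10508 CPM (UMIs of a gene scaled to the same total of gene UMIs in every library) in control, Mll3SI, Mll4SI and Mll3/4SI, against 149 to 547 CPM in the other cells. Since the rule chose on 5 of them, this is a description. The 5 that the rule did not use, Cpa3, Fcer1a, Gata2, Il3ra and Hdc, summed to 2996, 2713, 3108 and 4655 CPM in members and 121 to 487 CPM in the other cells. Of the 8 mast cell markers, 4 to 6 had no UMI in the members of a library. Mcpt4, a mast cell chymase, and Tpsab1, a tryptase, had none in any library, and Tpsb2, another tryptase, had 1 UMI in Mll3SI. Mcpt2, a chymase, had 20 UMIs in 11 of 51 Mll3SI members and none elsewhere, and Cma1 had 39, 1, 3 and 0. The mast cell level came from Cpa3 and Kit, which early basophil progenitors express too. Basophil genes outside the rule were thus higher in members, while chymase and tryptase transcripts were at or near 0 apart from Mcpt2 in Mll3SI and Cma1 in a few cells.

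The genes of the rule were unequally shared among members. Ms4a2 was detected in 238 of 238 members and Mcpt8, a granule protease of basophils, in 230. Cyp11a1, an enzyme of steroid synthesis, was detected in 160 and Cd200r3, a receptor of the CD200 receptor family, in 114. Prss34 had no UMI in 106 members, 1 to 4 UMIs in 43 and 5 or more in 89. The most frequent combination was Mcpt8, Ms4a2 and Cyp11a1 without the others, in 49 members, and all 5 genes were found together in 39. Close to the limit of the rule, 16 members held 10 to 12 UMIs of the 5 genes, and 11 cells with 3 or more genes held 7 to 9 and stayed out. A further 163 cells had 10 or more UMIs but only 2 of the genes. Prss34 was nearly absent elsewhere, with a UMI in 0.135% to 0.352% of the other cells of a library, while Mcpt8 had a UMI in 4.29% to 12.3% of them.

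A set of 28 members carried large amounts of neutrophil granule transcripts and stood apart from the rest. These cells held 100 or more UMIs of Camp, S100a8 and S100a9, which encode an antimicrobial peptide and the chains of calprotectin, and they are called granule-rich here. They numbered 4 of 75 in control, 4 of 51 in Mll3SI, 14 of 53 in Mll4SI and 6 of 59 in Mll3/4SI. In control, Mll3SI and Mll4SI no member lay between 58 and 1681 such UMIs, and in Mll3/4SI the members next to the limit held 89 and 144. Of the 28, 24 were either above the thresholds of both hashtags or among the cells with the highest Scrublet doublet scores. Their median depth in Mll4SI was 40648 gene UMIs, against 13978 in the other members. Results are given with and without them where they differ, a setting chosen after the data were seen. Of the cell barcodes, 54 to 75 in a library were also found in another library, and 1 member had such a barcode. The members of a library held a median of 11767 to 21892 gene UMIs per cell and 762574 to 1508836 in sum.

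**Figure D1:**
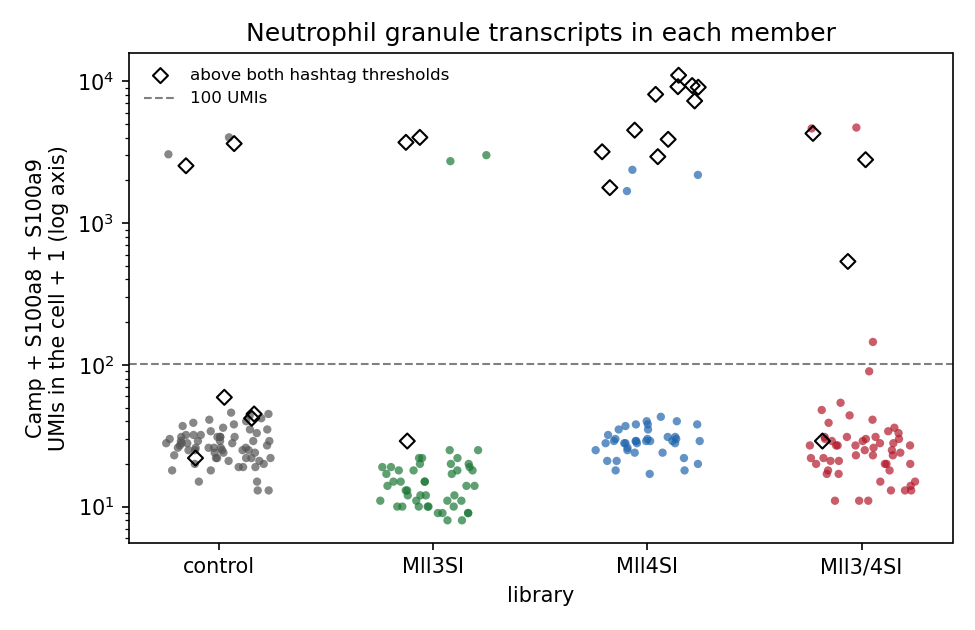
Summed Camp, S100a8 and S100a9 UMIs plus 1 in each member (log axis) by library; open diamonds are cells above both hashtag thresholds and the dashed line is at 100 UMIs. Most members lie below 100, and 14 of 53 Mll4SI members lie above.

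Sex-linked transcripts also differed between the libraries. Xist was at 0, 0, 2235 and 2082 CPM in members of control, Mll3SI, Mll4SI and Mll3/4SI, and Eif2s3y at 86.8, 82.6, 0 and 0 CPM. Group and sex of the cells therefore cannot be told apart for Mll4SI and Mll3/4SI against control.

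Members were a smaller share of the cells in Mll4SI than in the control. In Mll3SI the interval of the ratio lay below 1 with all UMIs and held 1 after thinning. Members made up 1.05% of 7152 cells in control (exact Clopper-Pearson 95% interval 0.826% to 1.31%). The share was 0.592% of 8617 in Mll3SI (0.441% to 0.777%), 0.474% of 11187 in Mll4SI (0.355% to 0.619%) and 0.823% of 7166 in Mll3/4SI (0.627% to 1.06%). The ratio to control was 0.564 in Mll3SI (95% counting interval 0.390 to 0.812) and 0.452 in Mll4SI (0.314 to 0.647). In Mll3/4SI it was 0.785 (0.552 to 1.11), an interval that holds 1. Without granule-rich members the ratios were 0.549, 0.351 and 0.745. Cells above the threshold of Hashtag1 only gave ratios of 0.618, 0.484 and 0.502 for Mll3SI, Mll4SI and Mll3/4SI, and cells with Hashtag2 only gave 0.595, 0.340 and 1.08. In Mll3/4SI the hashtags thus gave ratios on either side of 1. When every cell was thinned to 5000 UMIs before the rule, members were 36 of 6948 cells in control, 35 of 8404 for Mll3SI, 24 of 10662 for Mll4SI and 28 of 6975 for Mll3/4SI. The ratio to control was then 0.804 (95% counting interval 0.495 to 1.30) for Mll3SI, 0.434 (0.251 to 0.741) for Mll4SI and 0.775 (0.461 to 1.29) for Mll3/4SI. At equal depth the interval of Mll3SI held 1 and that of Mll4SI did not. The Kit+ sort can also set these shares, and its part in the result was not tested.

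**Figure D2:**
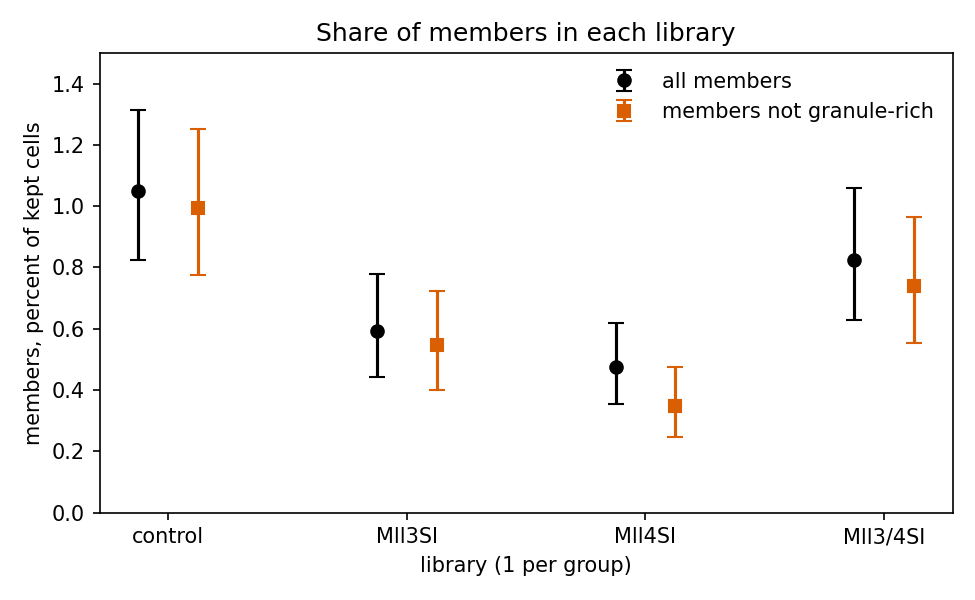
Members as a percentage of kept cells (y axis) in each of the 4 libraries (x axis), for all members and for members with under 100 neutrophil granule UMIs; bars are exact 95% intervals of counting error. Control is highest at 1.05% and Mll4SI lowest at 0.474%.

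Surface antibodies were a readout the rule had not used. Each antibody was taken as a share of the surface antibody UMIs of a cell, and the median cell of the members was compared with the median of all other cells of the same library. CD41, the integrin αIIb of megakaryocytes and basophils, was 1.12% in control members, 0.509% in Mll3SI members, 2.49% in Mll4SI members and 1.95% in Mll3/4SI, against 0.0842% to 0.387% in other cells. Members were higher in all 4 libraries, by 2.12 to 4.73 on the log2 scale. CD48, a leukocyte adhesion protein, made up 62.4%, 61.0%, 66.1% and 69.3% of the antibody UMIs of members and 9.47% to 24.4% in other cells. CD117, the Kit protein itself, was higher by 0.34 to 0.76 (log2) and CD34 by 0.25 to 1.12. For CD11b, an integrin of myeloid cells, the log2 ratio of members to other cells ran from -4.46 to -3.52, and for Gr1, a granulocyte antigen, from -2.68 to -1.34. CD16_32, the Fcγ receptors, lay at 19.0% in control members and 19.1% in other control cells, but at 11.4% against 28.6% in Mll4SI and 11.6% against 31.6% in Mll3/4SI. By the median cell, all 4 libraries pointed the same way for these 7 antibodies. On these medians the two-sided exact sign permutation p was 0.125 for each, the smallest that 4 libraries can give. It was 0.232 after Benjamini-Hochberg adjustment over 13 antibodies, so that none could pass 0.05. By the summed share only CD48, Gr1 and CD11b kept 1 direction in all 4 libraries. In Mll3/4SI the summed CD41 share was 2.88% in members and 3.52% in other cells, and CD117 was at 5.98% and 6.21%. Summed CD34 was lower in members of Mll3SI and Mll3/4SI. Summed CD16_32 was higher in members of control (20.8% against 19.1%) and Mll3SI.

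**Figure D3:**
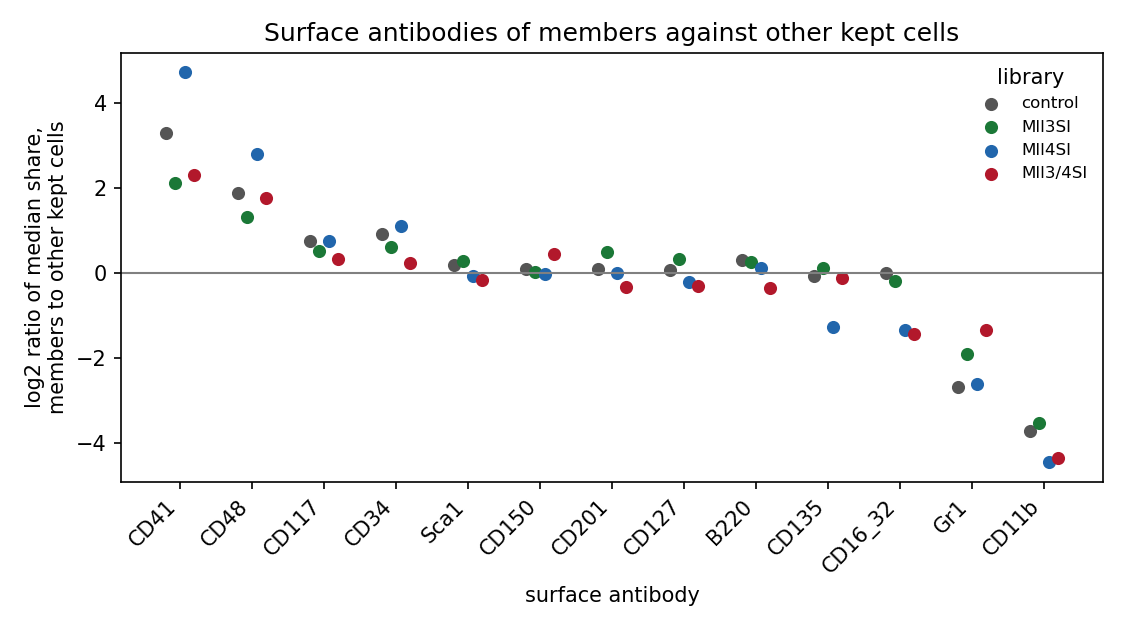
Log2 ratio of the median antibody share in members to that in all other kept cells (y axis) for 13 surface antibodies (x axis), 1 point per library. CD41 and CD48 are above 0 and CD11b and Gr1 below 0 in all 4 libraries.

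Between libraries CD41 in members was compared with control by the median cell and by the summed share. By the median cell its log2 ratio was -1.12 for Mll3SI, 1.14 for Mll4SI and 0.79 for Mll3/4SI, and by the sum it was -1.33, 0.51 and 1.19. CD41 was thus low in Mll3SI and high in Mll4SI and Mll3/4SI by both measures. In the other cells the median cell gave 0.06, -0.28 and 1.80 and the sum -0.14, 0.11 and 2.80, so that CD41 was higher in Mll3/4SI outside the members too. Itga2b, the gene of CD41, was at 109 CPM in control members, 89.2 in those of Mll3SI, 95.9 in those of Mll4SI and 127 in those of Mll3/4SI, with log2 ratios of -0.27, -0.17 and 0.20. The median cell of Mll3/4SI had a Gr1 ratio of -1.13 in members and -2.46 in the other cells. The summed Gr1 share gave -2.11 and -1.23, with 60.5% of the Gr1 UMIs of control members in 4 granule-rich cells, and without such cells it was -1.04 in members. In Mll4SI members the summed shares of CD11b and Gr1 had ratios of 2.06 and 1.30, and of -0.11 and 0.12 without granule-rich members. CD11b in Mll3/4SI members was at 0.80 with and 1.82 without them.

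Gene by gene, the libraries were compared by the summed UMIs of their members as log2 ratios of CPM + 10, and a gene was called when the ratio reached 1 in size. Of 6646 genes with a mean of at least 20 CPM, 0.211% were called higher and 0.376% lower in Mll3SI members (14 and 25 genes). In Mll4SI 1.56% were called higher and 0.346% lower (104 and 23 genes), and in Mll3/4SI 0.797% higher and 1.01% lower (53 and 67 genes). In either direction 0.587%, 1.91% and 1.81% were called. Without granule-rich members, among 6668 genes, Mll3SI had 0.135% higher and 0.450% lower, Mll4SI had 0.480% and 0.525%, and Mll3/4SI had 0.795% and 1.12%. The number called higher in Mll4SI was 104 with these cells and 32 without, and that in Mll3/4SI was 53 both ways. The 3 comparisons share the control library. The median over all genes was -0.03, -0.08 and -0.10 for Mll3SI, Mll4SI and Mll3/4SI, and scaling by the median of ratios moved the values of Mll3/4SI by 0.11.

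Fcer1a, the IgE-binding chain of the high-affinity receptor (chr1:173221284-173227214, GRCm38, minus strand), rose in Mll3/4SI members. It was at 266 CPM in control members, 312 in those of Mll3SI, 459 in those of Mll4SI and 1007 in those of Mll3/4SI. A UMI was found in 52 of 75, 39 of 51, 48 of 53 and 54 of 59 members, and the median cell held 1.55, 2.18, 6.21 and 9.11 UMIs per 10000. Mll3/4SI was the highest library and control the lowest, while single cells of all 4 overlapped. The log2 ratio to control was 1.88 in Mll3/4SI (95% counting interval of the ratio without the added CPM 1.76 to 2.08), 0.76 in Mll4SI (0.60 to 0.97) and 0.22 in Mll3SI (-0.01 to 0.46). Without granule-rich members Mll4SI reached 1.39 and Mll3/4SI 1.99. The ratio in Mll3/4SI was 1.13 for Hashtag1 and 2.20 for Hashtag2. The transcript was higher outside the members as well, at 1.40 CPM in other control cells and 69.3 in other Mll3/4SI cells (log2 2.80). After every member was thinned to 5000 UMIs, Fcer1a was detected in 57.3%, 54.9%, 79.2% and 79.7% of members, against 0% to 1.24% of granulocyte cells treated the same way.

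The level of Fcer1a in members without Prss34 differed most between the libraries. Among members that were neither granule-rich nor held 10 Prg2 UMIs, those with 5 or more Prss34 UMIs had 566 CPM of Fcer1a in control, 609 in Mll3SI members, 953 in Mll4SI members and 882 in Mll3/4SI. Members with no Prss34 UMI had 107, 103, 511 and 1263 CPM. In control, Mll3SI and Mll4SI Fcer1a was lower in members without Prss34 than in those with it, and in Mll3/4SI it was higher. The log2 ratios of Mll3/4SI to control were 0.63 with and 3.45 without Prss34, and those of Mll4SI 0.74 and 2.16. The split was made after the data were seen and uses a gene of the rule, so it is given with no test. Mcpt8, another gene of the rule, was at 4508 CPM with and 659 without Prss34 in control, and at 4429.8 with and 3337 without in Mll3/4SI. Cd200r3 had no UMI in any of the 18 Mll3/4SI members with 5 or more Prss34 UMIs, while it was found in 28 of the 59 Mll3/4SI members. In control, 15 of 25 members with 5 or more Prss34 UMIs held it, in Mll3SI 10 of 24 and in Mll4SI 18 of 22.

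**Figure D4:**
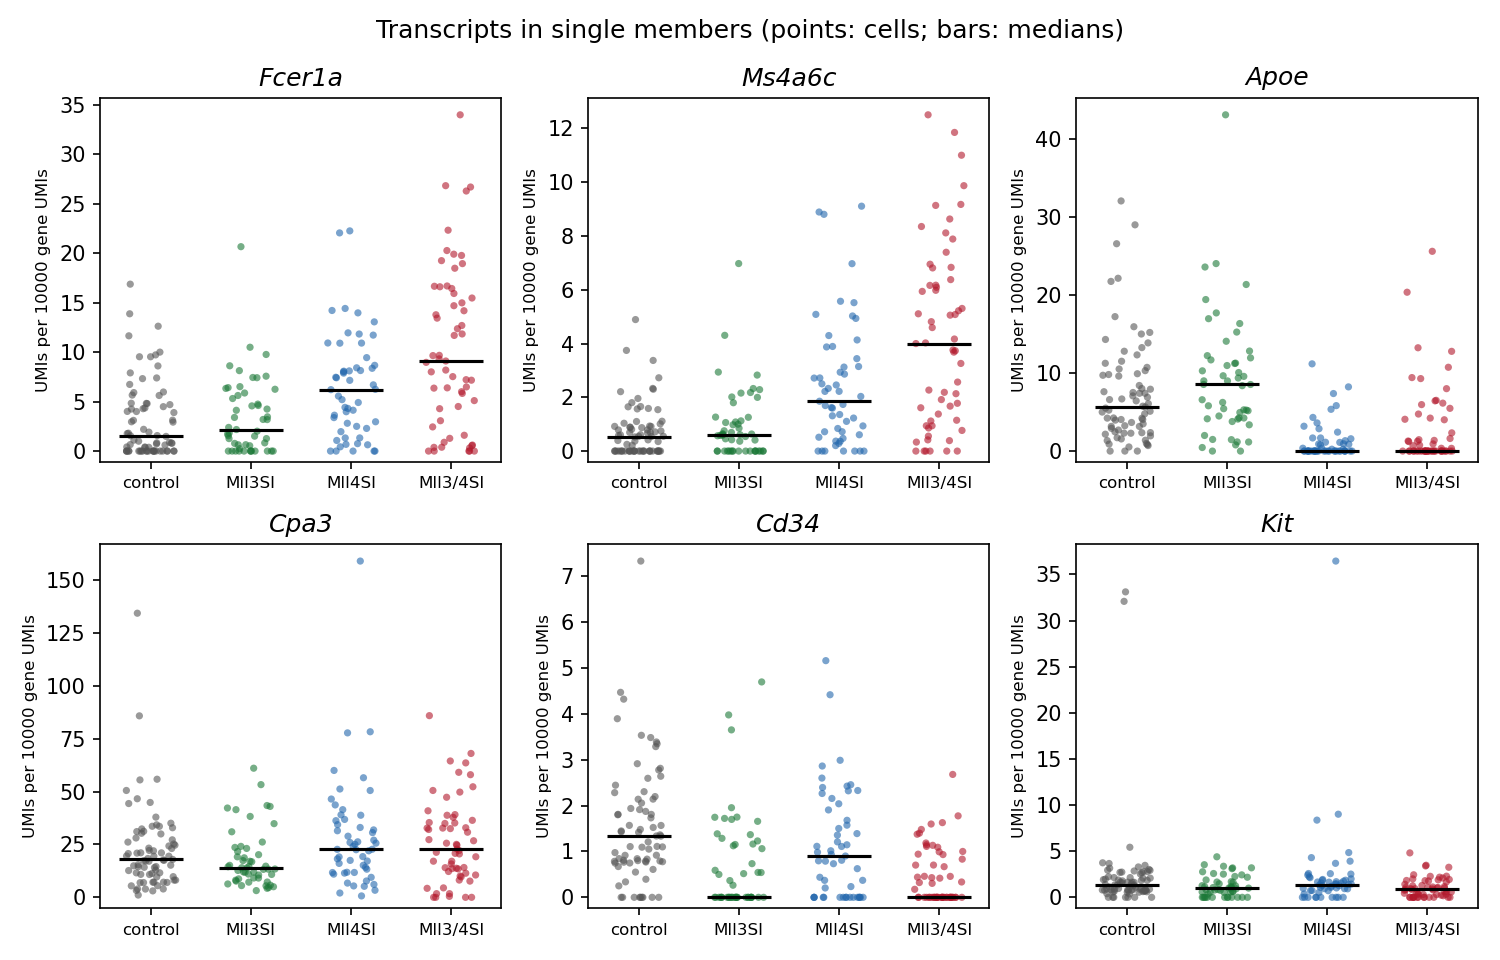
UMIs per 10000 gene UMIs (y axis) of 6 genes in each member, by library; points are cells and bars are medians. The Fcer1a median is 1.55 in control and 9.11 in Mll3/4SI, and the Apoe median is 5.65 in control and 0 in Mll4SI and Mll3/4SI.

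Among 34 receptor genes 22 were measured, and their median log2 ratio was 0.09, 0.02 and 0.25 for Mll3SI, Mll4SI and Mll3/4SI. In Mll3/4SI 3 of the 22 were called higher and none lower, beside 0.797% and 1.01% of all genes: Fcer1a, Il18rap, Cd69. Il18rap, a chain of the interleukin-18 receptor, was at 24.5 CPM in control members, 30.2 in those of Mll3SI, 60.4 in those of Mll4SI and 77.9 in those of Mll3/4SI (log2 0.22, 1.03 and 1.35). Cd69, an early activation antigen, was at 15.9, 11.8, 19.8 and 70.0 CPM in the same order, a log2 ratio of 1.63 in Mll3/4SI. Its ratio there was 0.63 for Hashtag1 and 1.97 for Hashtag2. Itgam, the gene of CD11b, was called higher in Mll4SI (1.80) and was at -0.01 without granule-rich members. Il3ra, the α chain of the receptor for interleukin-3, a growth factor of basophils, was at 48.4, 39.3, 38.0 and 90.1 CPM and was not called (0.78 in Mll3/4SI). Il1rl1, the receptor for interleukin-33, was at 117, 87.9, 112 and 124 CPM and was not called either. Kit was at 204, 132, 206 and 97.4 CPM, and its ratio of -0.996 in Mll3/4SI fell just short of a call, while without granule-rich members it was called at -1.08. The control cells with the most Kit held 37 and 34 of 308 UMIs, and the top Mll3/4SI cell held 9 of 135. After every member was thinned to the same depth, Kit was detected in 50.7% of control members (interval 38.9% to 62.4%). In Mll3/4SI it was detected in 39.0% (26.5% to 52.6%), so that the intervals overlapped. The CD117 antibody share of members had a log2 ratio of -0.59 in Mll3/4SI by the sum and -0.44 by the median cell. The median count of this antibody was higher there, at 163 UMIs against 114 in control members.

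No signalling gene behind the receptor was called in Mll3SI or Mll3/4SI members. Over all genes 0.587% and 1.81% were called there, so no call among so few genes lies near the share over all genes. Of 24 genes of the IgE pathway 19 were measured, with medians of -0.14, -0.05 and -0.25 for Mll3SI, Mll4SI and Mll3/4SI. Lyn, a kinase bound to the receptor, was at 134, 131, 152 and 95.2 CPM, and Syk, the kinase recruited to it, at 119.96, 78.7, 116 and 82.9 CPM. In Mll3/4SI 15 of the 19 lay below 0, none past the fold, beside 62.5% of all genes below 0 and a median over all genes of -0.10. Inpp5d, the inhibitory phosphatase SHIP1, had a log2 ratio of -0.52 there. Without granule-rich members Pik3cd, a catalytic subunit of phosphoinositide 3-kinase, was called lower in Mll4SI (-1.09).

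Granule and mediator genes showed 5 calls over the 3 comparisons, all of them lower. Over all genes 0.376%, 0.346% and 1.01% were called lower in Mll3SI, Mll4SI and Mll3/4SI. Of 37 genes 18 were measured, with medians of -0.16, -0.07 and 0.06. Gzmb, granzyme B, had the lowest ratios, -2.06 in Mll3SI and -3.03 in Mll3/4SI, at 131, 23.6, 174 and 7.21 CPM. In control 4 cells held 99.0% of its UMIs, and it was found in 1 Mll3/4SI member. Cpa3, the carboxypeptidase of basophil and mast cell granules, was at 1935 CPM in control members, 1638 in those of Mll3SI, 2025 in those of Mll4SI and 2487 in those of Mll3/4SI, and no ratio was past the fold. Without granule-rich members Cpa3 in Mll4SI was at 3021 CPM, a log2 ratio of 0.61. Hdc, which makes histamine, was at 246, 219, 189 and 457 CPM (0.87 in Mll3/4SI, not called). Ccl9, a chemokine, was called lower in Mll3/4SI at 47.6 CPM against 131 in control (-1.29), with ratios of -0.73 for Hashtag1 and -1.71 for Hashtag2. Il4, a type 2 cytokine made by basophils, was at 34.5, 17.0, 9.10 and 22.4 CPM. It was called lower in Mll4SI (-1.22), on 11 UMIs in 8 cells, and was at -0.89 without granule-rich members. Lgals1, galectin-1, was at 528, 555, 196 and 356 CPM and was called lower in Mll4SI (-1.39, and -0.98 without granule-rich members).

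Apoe, apolipoprotein E (chr7:19696109-19699188, minus strand), was called lower in Mll4SI and Mll3/4SI members. It was at 666 CPM in control members, 782 in those of Mll3SI, 90.1 in those of Mll4SI and 265 in those of Mll3/4SI. A UMI was found in 72 of 75, 49 of 51, 24 of 53 and 29 of 59 members. The control and Mll3SI libraries were high, and the median cell of both others had none. The log2 ratio was -2.76 in Mll4SI (95% counting interval -3.18 to -2.60) and -1.30 in Mll3/4SI (-1.50 to -1.15), and the hashtags gave ratios from -2.62 to -1.19 in these libraries. Without granule-rich members the ratios were -2.41 and -1.21. In the other cells Apoe was lower too, at 90.6 CPM in control, 11.9 in Mll4SI and 26.005 in Mll3/4SI (log2 -2.20 and -1.48). Ston2, an endocytic adaptor, was called lower in the same libraries, at 105, 82.6, 19.8 and 32.5 CPM (-1.95 in Mll4SI and -1.44 in Mll3/4SI), and in the other cells its ratios were -0.18 and -0.47.

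Ms4a6c, a membrane-spanning protein of the family of Ms4a2 (chr19:11469366-11482192, plus strand), rose in Mll4SI and Mll3/4SI members. It was at 76.9 CPM in control members, 83.9 in those of Mll3SI, 219.985 in those of Mll4SI and 408 in those of Mll3/4SI, with log2 ratios of 1.40 and 2.27 in the last pair of libraries. The median cell held 0.540, 0.589, 1.85 and 4.00 UMIs per 10000, so that control and Mll3SI were low and Mll3/4SI was highest. The hashtags gave ratios from 1.53 to 2.54, and members with and without Prss34 gave 1.92 and 2.75 in Mll3/4SI. After thinning to the same depth, Ms4a6c was detected in 24%, 27.5%, 64.2% and 69.5% of members. In granulocyte cells treated the same way the shares were 44.9%, 43.0%, 60.7% and 59.5%, so the rise was not limited to members. Without thinning, 30.2%, 31.9%, 25.2% and 36.5% of all other cells had a UMI, with Mll4SI the lowest. Sox5, a transcription factor, was at 23.9, 11.8, 85.2 and 122 CPM (1.49 in Mll4SI and 1.96 in Mll3/4SI). Plcb1, a phospholipase C, was at 9.28, 14.4, 79.4 and 50.5 CPM (2.21 and 1.65). Pcdh7, a protocadherin, was at 42.4, 13.1, 103 and 161 CPM (1.10 and 1.70), with 0.58 for Hashtag1 in Mll4SI. These 4 genes were called higher in both Mll4SI and Mll3/4SI, comparisons that share the control.

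Other genes were called higher in Mll3/4SI and not in Mll4SI, with no test of the difference between these libraries. Serpina3g, a serpin of activated leukocytes, was at 19.2 CPM in control members, 3.93 in those of Mll3SI, 40.5 in those of Mll4SI and 131 in those of Mll3/4SI (log2 2.27). Klk8, a secreted protease, was at 18.6, 19.7, 36.4 and 95.2 CPM (1.88), and Jun, a subunit of AP-1, at 35.1, 32.8, 28.9 and 138 CPM (1.72). In the other cells the ratios were 1.38, 1.52 and 1.19. Of 20 interferon-response genes 4 were measured in members, with medians of -0.36, 0.14 and 0.97 for Mll3SI, Mll4SI and Mll3/4SI. Bst2, a membrane protein that tethers virions, was at 92.1, 104, 97.6 and 299 CPM, and Ifitm3, which hinders viral entry, at 91.5, 52.5, 141 and 245 CPM. Their ratios in Mll3/4SI were 1.60 and 1.33, and 0.45 and 1.18 in the other cells.

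Progenitor genes included 5 that fell in Mll3/4SI members. Of 20 genes 14 were measured, with medians of -0.29, -0.13 and -0.82 for Mll3SI, Mll4SI and Mll3/4SI. In Mll3/4SI 13 of 14 lay below 0, beside 62.5% of all genes. There 5 were called lower, beside 1.01% of all genes: Cd34, Mecom, Hlf, Muc13, Gcnt2. Without granule-rich members 3 were called lower, Cd34, Mecom and Gcnt2, beside 1.12% of all genes. Cd34, a surface sialomucin of stem and progenitor cells, was at 164 CPM in control members, 80.0 in those of Mll3SI, 128 in those of Mll4SI and 47.6 in those of Mll3/4SI. A UMI was found in 66 of 75, 25 of 51, 37 of 53 and 29 of 59 members. At a depth of 5000 UMIs per cell these shares were 52%, 15.7%, 45.3% and 15.3%, and 32.5% to 44.1% in granulocyte cells, so that Mll3SI and Mll3/4SI were the low libraries. The ratio in Mll3/4SI was -1.60, with -0.70 for Hashtag1 and -2.31 for Hashtag2, and -0.08 in the other cells. The CD34 antibody share of Mll3/4SI members had a ratio of -0.61 by the sum and -0.74 by the median cell. The median count of this antibody was 19 UMIs there and 17 in control members. Mecom and Hlf, transcription factors of stem cells, were at 45.1 and 31.1 CPM in control and 7.93 and 7.21 in Mll3/4SI, on 11 and 10 UMIs. When at least 4 of the 5 genes of the rule were required, which left 38 control and 28 Mll3/4SI members, the median of the list was -0.22, and when cells were thinned to 5000 UMIs before the rule it was -0.16.

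Of 45 lineage transcription factors 35 were measured, with medians of -0.04, -0.12 and -0.33. Gata2, at 500.4, 505, 397 and 614 CPM, and Cebpa, at 280.3, 271, 203 and 257 CPM, had no ratio past the fold. Gata1 lay between 43.8 and 59.1 CPM. In Mll3/4SI 29 of the 35 were below 0, beside 62.5% of all genes. There Meis1 and Id2 were called lower, beside 1.01% of all genes, and Cebpd and Id1 higher, beside 0.797%. Id1, an inhibitor of helix-loop-helix factors, was at 39.8, 48.5, 43.0 and 92.3 CPM (1.04 in Mll3/4SI). Meis1, a homeobox factor of stem cells, was at 201 CPM in control and 90.1 in Mll3/4SI (-1.07), and its ratio in the other cells was 0.42. Runx1, at 2198 and 1348 CPM (-0.70), and Etv6, at 898 and 479 CPM (-0.89), were not called. Cebpd, a factor of granulocytes, was called higher in all 3 comparisons (1.13, 1.19 and 1.08), and without granule-rich members it was at 0.94, -0.08 and 1.10. Irf8, Id2 and Gfi1 were called higher in Mll4SI (1.24, 1.11 and 1.11) and were at 0.82, -0.07 and 0.66 without granule-rich members. Over all genes 0.211%, 1.56% and 0.797% were called higher in Mll3SI, Mll4SI and Mll3/4SI.

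**Figure D5:**
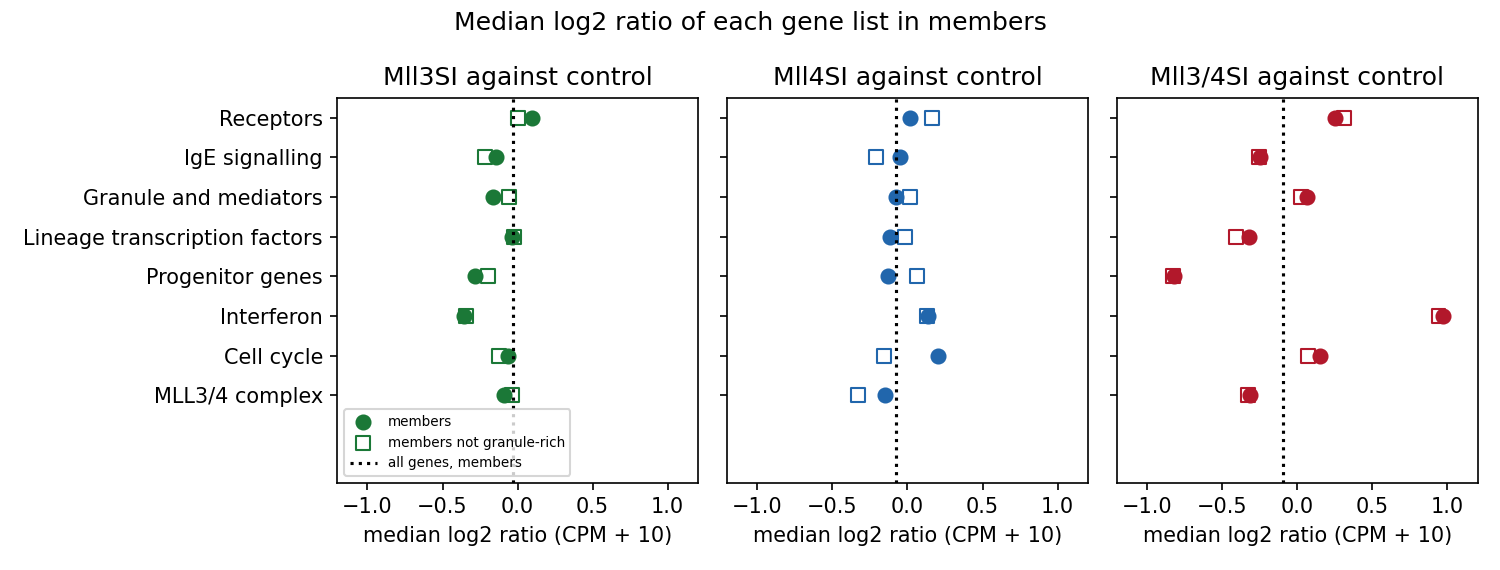
Median log2 ratio (CPM + 10) to control over the measured genes of 8 lists, in all members (filled circles) and in members that are not granule-rich (open squares); dotted lines are medians over all genes in members. In Mll3/4SI the progenitor list is at -0.82 and the interferon list at 0.97. The list labelled MLL3/4 complex also holds other chromatin regulators.

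Mll3SI members differed from control in other genes. Gm2a, the GM2 ganglioside activator (chr11:55098115-55113029, plus strand), was at 176 CPM in control members, 23.6 in those of Mll3SI, 83.5 in those of Mll4SI and 80.0 in those of Mll3/4SI. A UMI was found in 70 of 75 control and 15 of 51 Mll3SI members. Its ratio was -2.47 in Mll3SI (95% counting interval -3.67 to -2.21) and -1.06 in the other cells. Tspan32, a tetraspanin, was at 82.8, 11.8, 54.6 and 57.0 CPM (-2.09), and Scin, an actin-severing protein, at 182, 42.0, 255 and 224 CPM (-1.88). Hmga2, a chromatin protein, was at 51.0 and 10.5 CPM (-1.57). Btnl9, a butyrophilin-like protein, was called higher at 23.2, 102, 33.1 and 33.2 CPM (1.76), and in the other cells its ratio was -0.21. Both hashtags gave the same direction for Gm2a, Tspan32, Scin, Hmga2 and Btnl9, with -0.82 for Hmga2 in Hashtag1. Of the genes that chose the members, Mcpt8 was at 2008, 6666, 1362 and 3614 CPM and Prss34 at 1206, 2291, 925 and 864 CPM, given as a description. In Mll3/4SI 40.9% of the Prss34 UMIs came from 1 cell.

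Some of the lowest ratios were shared with the other cells. Tpm3-rs7, a tropomyosin-related sequence, was nearly lost in Mll3SI and Mll3/4SI members, at 142, 3.93, 105 and 2.88 CPM, and its ratios in the other cells, -3.71 and -3.76, were as large as in members. It resembles other tropomyosin sequences, and whether the counting split its reads among them was not tested. Rgcc, a regulator of the cell cycle, was at 101, 108, 171 and 10.8 CPM (-2.41 in Mll3/4SI, and -3.04 in the other cells). Nkg7, a granule membrane protein, was at 379, 496, 276 and 85.8 CPM (-2.02 in Mll3/4SI, and -1.33 in the other cells). Csgalnact1, an enzyme of chondroitin sulphate synthesis, was at 105, 55.1, 60.4 and 13.7 CPM (-2.27 in Mll3/4SI, and -0.77 in the other cells).

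Granulocyte markers moved with the granule-rich cells. Of the 15 markers 13 were measured, and 9 were called higher in Mll4SI, 3 in Mll3SI and 3 in Mll3/4SI. Over all genes 1.56%, 0.211% and 0.797% were called higher in the same order. In Mll3/4SI 6 of the 13 were below 0, and Ltf, lactoferrin, was called lower (-2.09, and -1.16 without granule-rich members), at 284, 460.3, 1499 and 59.1 CPM. The summed level of the 15 markers was 17591, 29146, 81781 and 26116 CPM in all members and 7365, 8892, 10230.3 and 12009 CPM without granule-rich members. Camp had ratios of 1.27 and 2.92 in Mll3SI and Mll4SI with these cells and -0.39 and 0.37 without. Ctsg, cathepsin G, was at 2416 CPM in control and 5200.2 in Mll3/4SI (1.10), and at 1.12 without granule-rich members. For the cell cycle genes the medians were -0.07, 0.20 and 0.15, with no call in any comparison. A list of 17 genes held Kmt2c, Kmt2d, partners of the MLL3/4 complex and other chromatin regulators such as Kmt2a, Setd1a, Crebbp and Ep300. Of these 15 were measured, with medians of -0.09, -0.15 and -0.32 and no call. The medians are those of the mixed list and not of the complex alone. Over all genes 0.587%, 1.91% and 1.81% were called, so no call in either list lies near the share over all genes. Kmt2c was at 160.4, 147, 144 and 113 CPM and Kmt2d at 32.5, 32.8, 32.3 and 31.0 CPM. Counts of 3′ ends do not check a change within these genes that leaves their RNA in place.

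A few members carried transcripts of neighbouring lineages. Prg2, the major basic protein of eosinophils, had no UMI in 212 of 238 members and 10 or more in 12: 5 in control, 3 from Mll3SI, 3 from Mll4SI and 1 in Mll3/4SI. These 12 cells held 98.7% to 99.9% of the Prg2 UMIs of their libraries, and 764 UMIs came from 1 Mll3/4SI cell, which was granule-rich. All 12 also had Prg3, a second basic protein, and 11 had Epx, eosinophil peroxidase, which was found in 6 of the other 226 members. Over the 12 cells Cebpe, a factor of eosinophil and neutrophil maturation, was at 477 CPM and Gata2 at 91.8. Epx was called lower in all 3 comparisons (-2.37, -1.55 and -1.83, with -0.90 for Mll4SI without granule-rich members), and 1 control cell held 101 of the 135 Epx UMIs of control members. In the 78 members with 5 or more Prss34 UMIs that were neither granule-rich nor rich in Prg2, Cebpe and Gata2 were at 18.8 and 697 CPM.

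Gzmb had 10 or more UMIs in 9 members, 4 in control, 4 in Mll4SI and 1 in Mll3/4SI. Of these 9, 7 had no Prss34 UMI, 6 had no UMI of Cebpa and 7 had 2 or more of Mitf, a factor of the mast cell lineage. Among the other 229 members 10 had no Cebpa UMI and 16 had 2 or more of Mitf. Cma1, a mast cell chymase, was found in 4 of the 9 and in 1 of the other 229. In control, the cell with 105 Gzmb UMIs held 34 UMIs of Kit, 138 of Cpa3 and 585 of the CD117 antibody, and the cell with 36 Cma1 UMIs held 37 of Kit and 580 of the antibody. The median control member held 114 UMIs of that antibody. The pair with the most Gzmb in Mll4SI, 89 and 54 UMIs, were granule-rich. These cells were chosen after their values were seen, and with 9 cells no comparison between libraries was made.

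Within each library members were also ordered by the share of their UMIs in the 5 genes of the rule and divided into 3 equal parts. Of 6641 genes not used by the rule, 6 were at least 2-fold higher in the top part than in the bottom part in all 4 libraries (0.0903%) and 9 were lower (0.136%). The higher genes were Jazf1, Ccr1, Rapsn, Edem3, Alox5 and Poln, of which Ccr1 is a chemokine receptor and Alox5 makes leukotrienes. The lower genes were Prg3, Elane, Cebpe, Alcam, Mef2c, Irf8, Prtn3, B4galt6 and Vav3, which include proteases and factors of granulocytes and monocytes. Fcer1a differed between top and bottom by 3.23, 2.83, 1.90 and 0.91 (log2) in control, Mll3SI, Mll4SI and Mll3/4SI, and Cpa3 by 1.40, 1.59, 2.05 and 0.72. Gata2 was above 0 in all 4 by 0.85 to 2.31 and Il4 by 0.76 to 1.67, while Cd34 was below 0 in all 4 by 0.66 to 1.28. The bottom part was deeper (median 16966 to 28708 gene UMIs, against 11755 to 19699 in the top part) and held 10 of the 14 granule-rich Mll4SI cells. With every cell thinned to 5000 UMIs the counts were 11 higher and 5 lower. None of the 6 higher genes stayed 2-fold in all 4 libraries at that depth, with lowest ratios from 0.32 to 0.80, and 3 of the 9 lower genes did, Prg3, Elane and Alcam. Mef2c and Irf8 were not below 0 in every library then. The order uses the genes of the rule, so these values are a description.

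Cells just outside the rule were set beside the members. Cells with both Cpa3 and Fcer1a and 10 or more UMIs of the pair, but not members, were 31, 19, 93 and 556 in control, Mll3SI, Mll4SI and Mll3/4SI, or 7.76% of the cells in Mll3/4SI against 0.433% in control (ratio 17.9, 95% counting interval 12.5 to 26.5). The rule itself separates these cells from members by its 5 genes, so that their 0 to 0.507 CPM of Prss34 and 50.1 to 408 CPM of Mcpt8, against 864 to 2291 and 1362 to 6666 in members, are a description. In Mll3/4SI their Gata2 was at 194 CPM, against 614 in members, and their Kit at 219.97 CPM, against 97.4. Their Apoe was at 1048 CPM in control and 29.5 in Mll3/4SI, and their Ms4a6c at 47.4 and 241 CPM, so both genes differed in the same direction as in members. In Mll4SI and Mll3/4SI these cells outnumbered the members, and in control and Mll3SI they were fewer.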

How the data were processed

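RNA and antibodies were counted in 4 single-cell libraries, 1 per group. The authors deposited UMI counts per gene and cell as filtered matrices of 32285 genes and 15 antibodies, 2 of them hashtags. The submitters' processing notes name Cell Ranger 7.1.0 and build mm10. Cells with at least 500 genes, 1000 gene UMIs and at most 10% mitochondrial UMIs were kept. UMIs of members were summed per library (762574 to 1508836) and given as CPM. Differences are log2 ratios of CPM + 10 among genes with a mean of at least 20 CPM. Intervals of ratios are exact conditional binomial (95%) and cover counting error. Doublet calls were cells above both hashtag thresholds (124 and 325 UMIs) or with the top Scrublet scores (scanpy 1.11.5, 0.8% per 1000 cells), and these were kept in the main values. On simulated data with 200 genes changed 4-fold among 6646, 92.5% to 94.5% were called and intervals held the true ratio in 96.4% to 96.8%. The simulated sums held counting error only, with no variation between cells. They therefore cannot show how calls and intervals hold where the UMIs of a gene lie in a few cells. Named genes were those of the rule and of gene lists, and the 10 highest and 10 lowest genes of each comparison by the counting limit nearest to 0. Members and lists were chosen with earlier results of these data known. Genes were placed with GENCODE M21 (32158 of 32285 IDs found). Alternatives were other rule limits, cell filters, depths, scalings, added CPM and minimum levels.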

Additional observations from a re-analysis of the deposited data

How the results depend on the processing

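With 1 library per group no replicate could be left out. No paired analysis was possible because each group had 1 library. The call counts rest on 51 to 75 cells per library and moved by over 1.5 times in 46 of 90 values under the alternatives. By contrast, 318 of 336 list medians and 23 of 24 share ratios moved by less than their limits. The limit of a list median was the counting interval of the list gene nearest to it. It belongs to 1 gene, so a median within it is not shown to be stable. The Mll3SI share ratio after thinning was not counted as moved, though its interval then held 1. The values that moved follow, and except where an alternative uses fewer cells or genes by construction, the cause was not tested. With at least 20 UMIs of the rule genes, 52 genes were higher in Mll4SI and the list median was -0.13 for Cell cycle in Mll4SI. With at least 4 of the 5 genes, 39 genes were higher in Mll3SI and 57 for Mll4SI and 86 genes were lower in Mll3SI, 78 for Mll4SI and 141 for Mll3/4SI. List medians were 0.011 for Progenitor genes in Mll3SI, -0.22 for Progenitor genes in Mll3/4SI, 1.61 for Interferon in Mll3/4SI and -0.18 for Cell cycle in Mll4SI and antibodies past 2-fold were 2 in Mll4SI. The sign turned for Gr1 antibody in Mll4SI (-0.18) and Gzmb in Mll3SI (0.58). Without cells with a doublet call, 7 genes were higher in Mll3SI and 37 for Mll4SI and 36 genes were lower in Mll4SI. With this setting the list median was -0.22 for Cell cycle in Mll4SI. The sign turned for Camp in Mll3SI (-0.31). With cells thinned to 5000 UMIs before the rule, 31 genes were higher in Mll3SI and 83 for Mll3/4SI and 69 genes were lower in Mll3SI, 125 for Mll4SI and 101 for Mll3/4SI. The list median was -0.16 for Progenitor genes in Mll3/4SI, -0.15 for Interferon in Mll3SI, 0.48 for Interferon in Mll4SI and -0.64 for Cell cycle in Mll4SI and antibodies past 2-fold were 1 in Mll3SI and 2 in Mll4SI. The sign turned for Gr1 antibody in Mll4SI (-0.80), CD11b antibody in Mll4SI (-1.11), Gzmb in Mll3SI (0.29), Epx in Mll3SI (0.93), Epx in Mll4SI (1.12), Epx in Mll3/4SI (2.34), S100a8 in Mll4SI (-0.22), Camp in Mll3SI (-0.36) and Camp in Mll4SI (-0.040). Without granule-rich members, added after seeing the data, 9 genes were higher in Mll3SI and 32 for Mll4SI and 35 genes were lower in Mll4SI. Under it the list median was -0.16 for Cell cycle in Mll4SI and antibodies past 2-fold were 2 in Mll4SI and 4 in Mll3/4SI. The sign turned for CD11b antibody in Mll4SI (-0.11) and Camp in Mll3SI (-0.39). In Hashtag1 cells, 65 genes were higher in Mll3SI and 118 genes were lower in Mll3SI, 78 for Mll4SI and 168 for Mll3/4SI. List medians were -0.30 for Granule and mediators in Mll3/4SI, 0.055 for Progenitor genes in Mll3SI, 0.18 for Interferon in Mll3SI, 1.28 for Interferon in Mll3/4SI and -0.24 for Cell cycle in Mll4SI and antibodies past 2-fold were 4 in Mll3SI and 1 in Mll4SI. The share ratio was 0.502 in Mll3/4SI. The sign turned for Serpina3g in Mll3SI (0.018). In Hashtag2 cells, 65 genes were higher in Mll3SI and 93 for Mll3/4SI and 115 genes were lower in Mll3SI, 174 for Mll4SI and 144 for Mll3/4SI. Antibodies past 2-fold were 6 in Mll3SI. The sign turned for CD11b antibody in Mll4SI (-0.10), CD127 antibody in Mll4SI (0.18) and Gzmb in Mll3SI (1.39). With 1 CPM added, 34 genes were higher in Mll3SI and 81 for Mll3/4SI and 78 genes were lower in Mll3SI, 72 for Mll4SI and 155 for Mll3/4SI. With genes of at least 5 CPM, 27 genes were higher in Mll3SI, 170 for Mll4SI and 92 for Mll3/4SI and 59 genes were lower in Mll3SI, 46 for Mll4SI and 112 for Mll3/4SI. List medians were -0.15 for Interferon in Mll3SI. With no minimum level, 28 genes were higher in Mll3SI, 186 for Mll4SI and 97 for Mll3/4SI and 61 genes were lower in Mll3SI, 48 for Mll4SI and 113 for Mll3/4SI. The list median was -0.048 for Interferon in Mll3SI. With the mean over members in place of the sum, 8 genes were higher in Mll3SI and 53 for Mll4SI. With genes in at least 10 members and at most 20% of UMIs in 1 cell, 6 genes were higher in Mll3SI. With members thinned to 5000 UMIs, the genes ordered with the rule in all 4 libraries were 11 higher and 5 lower. At most 5% mitochondrial UMIs, scaling by the median of ratios, a total without the rule genes and Cpa3, and hashtags counted in the antibody total moved no count past 1.5 times and turned no sign.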

Other observations

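Monocyte markers were looked at because Ms4a6c is among them. Of 10 markers 4 were measured, and their summed level was 192, 194, 507 and 479.6 CPM in members of control, Mll3SI, Mll4SI and Mll3/4SI. In Mll3/4SI Ms4a6c was called higher, the median of the 4 was -0.42, and 3 of the 10 had no UMI. In Mll4SI 3 were called higher, F13a1, Ms4a6c, Irf8, and without granule-rich members F13a1 and Ms4a6c. Over all genes 0.797% were called higher in Mll3/4SI and 1.56% in Mll4SI, or 0.480% in Mll4SI without granule-rich members. Erythroid markers summed to 152, 233, 91.0 and 54.8 CPM. Car1, a carbonic anhydrase, was called higher in Mll3SI (3.45), with all 81 UMIs in 1 cell, and without that cell the sum was 81.7 CPM. Car2, another carbonic anhydrase, was called lower in Mll3/4SI members (-2.51), at 79.5, 62.9, 57.1 and 5.77 CPM.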
